A study of Mus musculus with 10 samples.

Results

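The change that follows loss of the transcription factor c-Maf in regulatory T cells (Tregs) of the mouse gut was examined as the contrast of 2 Maf-KO libraries (replicates 2 and 3) with 2 WT libraries (replicates 1 and 3), which are 4 of the 10 libraries sequenced. All libraries came from C57BL/6 mice, and Tregs had been sorted as CD4+ TCRb+ YFP+ cells. WT gut cells came from Foxp3Cre-YFP animals and Maf-KO gut cells from animals that carried floxed Maf alleles with the same Foxp3Cre-YFP, so both genotypes express the Cre recombinase and the reporter from Foxp3, and Maf is deleted only in cells that have expressed Foxp3. Gut means colon plus small intestine, processed as 1 tissue. The remaining libraries are 3 WT and 3 Maf-KO Treg libraries of the spleen, used here to share the estimate of spread and to set the gut change beside. No age, sex or microbiota status is given, and no label states that replicates came from separate animals; the p-values therefore measure only how these samples spread.

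Tregs are CD4 T cells that express the transcription factor Foxp3 and hold back other immune cells. In the intestine a large share of them responds to the microbiota, and many of those secrete the anti-inflammatory cytokine IL-10. c-Maf belongs to the large Maf proteins, which bind DNA through a basic leucine zipper related to that of AP-1, and it is known as an activator of Il10 in several kinds of T cell.

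The gut libraries held totals of 8728874 and 9538182 counts (WT) against 12909265 and 13983965 (Maf-KO), so depth was higher in both Maf-KO libraries. A count of 3, taken as the detection floor, equals 0.24 to 0.377 CPM (counts scaled to each library's total after TMM normalization). T cell markers summed to 12219 to 13510 CPM in the 4 libraries. Over 10083 genes of at least 5 CPM, the SD of the log2 ratio was 0.503 between the WT libraries and 0.472 between the Maf-KO libraries, and 0.479 to 0.568 between libraries of different genotype. Whole-transcriptome distance thus did not separate the genotypes from the replicates. Sums for other cells differed within and between genotypes. Plasma cell markers were at 7825 and 3354 CPM in WT and 5524 and 2545 CPM in Maf-KO. Markers of the exocrine pancreas were at 223 and 45.6 CPM in WT and 16.2 and 27.4 CPM in Maf-KO, where 11 and 12 of their 15 genes were at 0. Most of the Maf-KO sums came from Cela1, at 14.5 and 25.1 CPM in Maf-KO and 47.5 and 17.9 CPM in WT. B cell markers were at 55.4 to 94 CPM and epithelial markers at 149 to 182 CPM, with overlap. Most of the epithelial sum came from Epcam (119 to 167 CPM). Of 8 epithelial genes tested, 1 was higher and 0 lower at an unadjusted p under 0.05, against 3.56% and 4.58% of all genes. That gene, Cdh1, was at 5.28 and 6.15 CPM in WT and 25.2 and 19.8 CPM in Maf-KO. No member of any of the 9 marker lists was called by edgeR in gut (DESeq2 called Cd5 higher and Ctrb1, Prss2 and Try5 lower), where 7 of 8 tested pancreatic genes were lower at an unadjusted p under 0.05. The part of these cells in the results was not tested. Leaving out immunoglobulin segments and these pancreatic genes gave 21 called genes in place of 20. That fit drops only these genes and keeps RNA of such cells in all others, so it cannot show their part.

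A further difference between the libraries ran along the genotypes in gut. Trim12a and Trim30d, neighbouring genes of the TRIM family on chromosome 7 (from 104299893 to 104315558 and from 104470014 to 104507853, GRCm38), were looked at after their values were seen. Counts of Trim12a were 1 and 0 in WT gut against 195 and 196 in Maf-KO gut. Those of Trim30d were 4 and 1 in WT gut against 261 and 262 in Maf-KO gut. In spleen all 3 Maf-KO libraries were high, with 209, 293 and 274 counts of Trim12a and 240, 233 and 193 of Trim30d. The WT spleen libraries that share title numbers with WT gut had 1 and 0 counts of Trim12a and 5 and 20 of Trim30d, while WT spleen replicate 2, whose title number has no gut library, had 323 and 238. WT spleen replicate 2 is thus the only spleen library whose level differs from the rest of its genotype. In gut, genotype and this difference cannot be told apart.

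The question of the contrast is which genes of intestinal Tregs depend on c-Maf. Of 13214 genes tested, 20 were called by edgeR's quasi-likelihood test at an adjusted p under 0.05 (0.151%), 2 higher in Maf-KO (0.0151%) and 18 lower (0.136%). At an unadjusted p under 0.05 there were 1076 genes (8.14%), 471 higher (3.56%) and 605 lower (4.58%). Among the 20, Maf apart, were genes for a cytokine (Il10), a chemokine (Ccl20), secreted ribonucleases (Rnase4, Ang), matrix proteins (Col16a1, Matn2, Prg4), a membrane protease (Adam8) and, in the higher direction, genes for T and NK cell membrane proteins (Nkg7, Cd7). The fold was at least 2 in 19 of the 20, and 11 of the 18 lower genes were at least 4-fold lower. When the title number entered as a random block, since same-numbered gut and spleen libraries varied together, 42 genes were called (5 higher, 37 lower), all 20 among them. The count was 107 by DESeq2 and 12 in a fit to the gut libraries alone. Leaving out 1 library changed it too: 7 genes were called when WT gut replicate 1 was left out, 5 when it was WT gut replicate 3, and 4 when it was either Maf-KO gut library. Among spleen libraries, leaving out WT replicate 1 gave 10 and leaving out Maf-KO replicate 3 gave 12. Maf, Rnase4 and Ccl20 kept their calls with any 1 library left out, and the other 17 genes each lost theirs without at least 1 of the gut libraries.

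**Figure D1:**
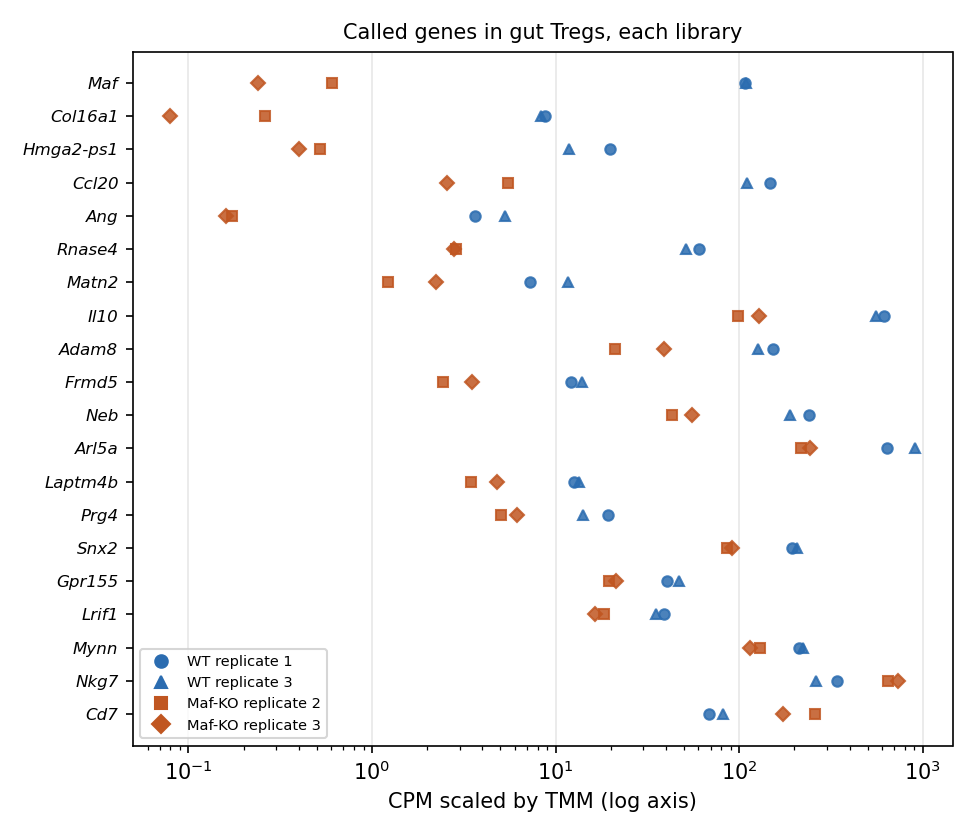
Level of each of the 20 called genes in the 4 gut libraries, as CPM scaled by TMM on a log axis (blue, WT; orange, Maf-KO; 1 point per library), ordered by log2 fold change. Maf lies at 108 and 109 CPM in WT and at 0.609 and 0.24 CPM in Maf-KO, and Nkg7 and Cd7 at the bottom are higher in both Maf-KO libraries.

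Maf itself was the check of the labels. Its counts were 859 and 918 in WT gut against 7 and 3 in Maf-KO gut, which is 108 and 109 CPM against 0.609 and 0.24 CPM. Both Maf-KO libraries were thus far below both WT libraries, and the log2 fold change was -7.98 (SE 0.57, edgeR adjusted p = 4.51e-04). Foxp3 marked the lineage in all 4 libraries, at 157 and 206 CPM in WT and 212 and 175 CPM in Maf-KO. The genotypes overlapped for Foxp3, whose log2 fold change was 0.09 (SE 0.15).

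**Figure D2:**
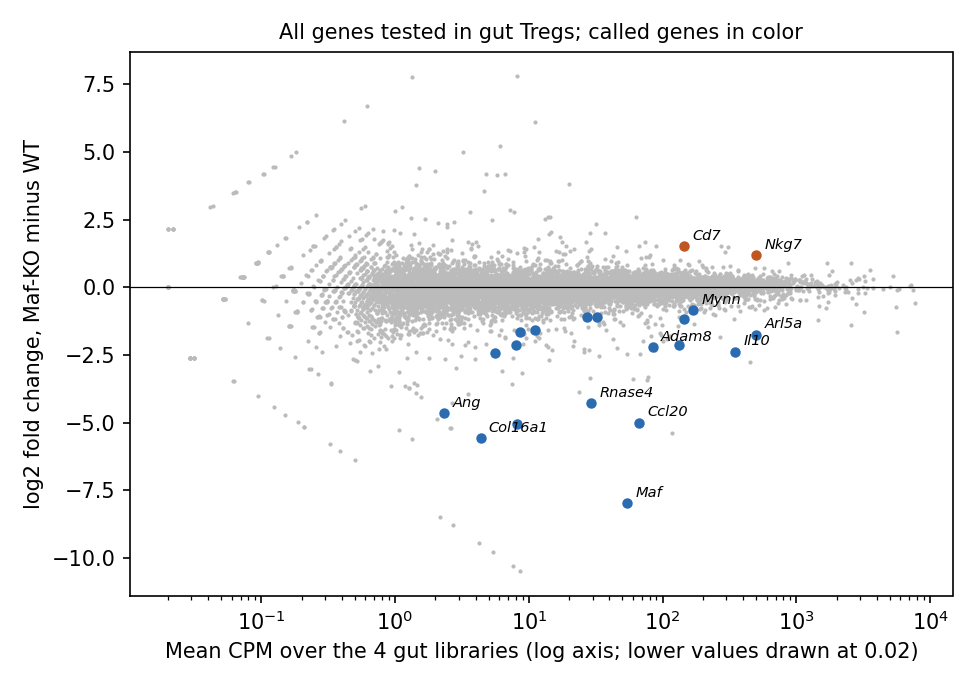
Log2 fold change of Maf-KO against WT for the 13214 genes tested (grey points), against the mean CPM over the gut libraries on a log axis. Called genes are colored (blue lower, orange higher), and 18 of the 20 have a mean of at least 5 CPM.

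Il10 was among the 18 lower genes. It encodes interleukin 10, which restrains myeloid cells and effector T cells. Its level was 617 and 556 CPM in WT and 98.4 and 128 CPM in Maf-KO. Il10 was thus lower in both Maf-KO libraries but still well expressed, and fell by 2.37 in log2 units (SE 0.25, edgeR adjusted p = 0.0064). The adjusted p reached 0.0986 over the alternatives, and the call was lost without either Maf-KO gut library. Per transcript length, on the deposited FPKM scale, Il10 was at 456 and 392 FPKM in WT, ranks 112 and 128 of 12252 genes, and at 70.3 and 90.4 FPKM in Maf-KO, ranks 1199 and 908. In such bulk samples fewer cells with the transcript and less of it per cell cannot be told apart. Areg, the gene of the epidermal growth factor family member amphiregulin, had 634 and 602 CPM in WT and 371.4 and 343 CPM in Maf-KO (log2 fold change -0.79, SE 0.22), and was called lower by DESeq2 (adjusted p = 0.0104) and not by edgeR.

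Ccl20 encodes the ligand of the chemokine receptor CCR6 and is classed with the Th17 programme. It was at 148 and 110 CPM in WT and at 5.48 and 2.56 CPM in Maf-KO, with no overlap. The log2 fold change was -5.01 (SE 0.38, edgeR adjusted p = 0.00473), a 32.2-fold lower level, and the call held in all 18 alternatives that were run. The receptor gene Ccr6 had 127 and 92.3 CPM in WT and 96.5 and 122.7 CPM in Maf-KO, groups that overlapped, with a log2 fold change of 0.00 (SE 0.19). Of 16 chemokine ligand genes tested, a list chosen with earlier results known, Ccl20 was the only call by edgeR (0.151% of all genes). Against 3.56% of all genes, 3 of the list were higher at an unadjusted p under 0.05. These were Ccl1 (4.4 and 5.09 CPM in WT, 11 and 12.2 CPM in Maf-KO, called higher by DESeq2 with an adjusted p of 0.0331), Ccl5 (121 and 134 against 271 and 228 CPM) and Cxcl9 (0.88 and 1.07 against 3.31 and 1.92 CPM).

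Genes of the RNase A family of ribonucleases were called too. Rnase4 was at 60.3 and 51.2 CPM in WT and at 2.87 and 2.8 CPM in Maf-KO. The replicates lay close together in each genotype, and Rnase4 fell by 4.29 in log2 units (SE 0.24, edgeR adjusted p = 9.08e-05), with the call held in all 18 alternatives. Ang, the gene of angiogenin, had counts of 29 and 45 in WT against 2 and 2 in Maf-KO, a log2 fold change of -4.65 (SE 0.56, edgeR adjusted p = 0.0154). Rnase4 and Ang overlap and are listed with 1 common start, so reads in shared exons cannot be assigned to one of them, and how such reads were counted is not stated in any source used here. No other member was called by edgeR, DESeq2 or limma-voom. Rnase6, the nearest other ribonuclease gene, 17757 bases from Rnase4, was at 8.3 and 3.91 CPM in WT and 4.27 and 2.32 CPM in Maf-KO, and the intracellular inhibitor gene Rnh1 had a log2 fold change of -0.03. Of 7 genes of the list that were tested, 2 were called lower (0.136% of all genes) and 1 was positive. The median was -0.39 (all genes: median -0.0035). This list too was chosen with earlier results of these data known.

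The upstream sequences of genes at both ends of the contrast are shown because Rnase4 and Ang, which fell together, have that common start, and because Ccl20 and Nkg7 each stand for one direction of change. Each run is the 250 bases before a transcript start from RefSeq (GRCm38.p6), on the plus strand, with the letters TATAA in capitals. The runs lie at chr14:51090827-51091076 (start common to Rnase4 and Ang), chr14:51095750-51095999 (a second start of Rnase4, 4923 bases downstream), chr1:83116516-83116765 (Ccl20) and chr7:43436888-43437137 (Nkg7).
Rnase4 and Ang: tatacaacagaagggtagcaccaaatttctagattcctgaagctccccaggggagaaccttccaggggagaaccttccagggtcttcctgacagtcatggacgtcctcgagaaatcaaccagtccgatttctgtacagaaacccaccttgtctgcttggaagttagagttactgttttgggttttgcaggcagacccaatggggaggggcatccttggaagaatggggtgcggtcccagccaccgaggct
Rnase4, second start: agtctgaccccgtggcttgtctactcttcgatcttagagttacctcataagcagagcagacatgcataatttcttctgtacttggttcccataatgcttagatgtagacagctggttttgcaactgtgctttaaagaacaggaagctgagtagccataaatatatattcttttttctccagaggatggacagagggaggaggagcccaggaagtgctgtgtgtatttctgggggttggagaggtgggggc
Ccl20: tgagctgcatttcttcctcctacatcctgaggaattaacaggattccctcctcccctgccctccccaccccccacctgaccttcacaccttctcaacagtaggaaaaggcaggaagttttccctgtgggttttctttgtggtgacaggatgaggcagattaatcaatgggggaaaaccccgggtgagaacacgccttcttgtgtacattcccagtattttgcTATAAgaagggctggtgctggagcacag
Nkg7: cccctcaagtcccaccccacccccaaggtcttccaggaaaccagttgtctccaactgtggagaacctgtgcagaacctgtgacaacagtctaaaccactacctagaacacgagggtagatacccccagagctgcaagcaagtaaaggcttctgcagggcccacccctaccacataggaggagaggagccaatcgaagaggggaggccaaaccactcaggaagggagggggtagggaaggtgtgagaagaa
TATAA, looked for after the sequences were seen and on both strands, occurred in Ccl20 with its first base 28 bases before the start, and in none of the other 3 runs. Of 12550 listed promoters of genes tested, 12.8% hold it within 250 bases before the start, as do 22.8% of all 32851 listed. TGCTGA, the core of one side of the Maf recognition element, and TGANTCA, the AP-1 site, were searched on both strands from 250 bases before to 50 bases after each start. A match of each of these motifs could overlap the other. Neither occurred in the 13 promoters that the table lists for 11 of the called genes. Among these the promoter common to Rnase4 and Ang is counted for each gene. Over promoters of genes tested, at the same length, 15.5% held TGCTGA, 5.04% held TGANTCA and 0.295% an overlap of both, and over all promoters listed 19.5%, 7.81% and 0.423%. With the 250 bases before the start alone the shares among genes tested were 12.9%, 4.35% and 0.239%, and the 13 promoters again held neither. The called genes with a promoter in the table were Ccl20, Arl5a, Gpr155, Frmd5, Mynn, Lrif1, Col16a1, Nkg7, Adam8, Rnase4 and Ang.

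Matrix genes held 3 calls by edgeR among 16 tested, against 0.151% of all genes. The list was chosen with earlier results of these data known, so this count is no sign of a matrix theme. Col16a1, which encodes a fibril-associated collagen, had counts of 70 and 70 in WT against 3 and 1 in Maf-KO, or 8.8 and 8.29 CPM against 0.261 and 0.0799 CPM. Its level was low in WT and at or under the floor in Maf-KO, with a log2 fold change of -5.57 (SE 0.73, edgeR adjusted p = 0.0208). Matn2 encodes the adaptor protein matrilin 2 and was at 7.29 and 11.7 CPM in WT and 1.22 and 2.24 CPM in Maf-KO (log2 fold change -2.45, SE 0.38, edgeR adjusted p = 0.0494). Prg4 encodes lubricin, a lubricating proteoglycan of joints, and was at 19.2 and 14.1 CPM in WT and 5.05 and 6.15 CPM in Maf-KO (log2 fold change -1.57, SE 0.23, edgeR adjusted p = 0.0412). The calls of Matn2 and Prg4 were held in 5 and 6 of 18 alternatives. A further 1 of the list was lower and 1 higher at an unadjusted p under 0.05, against 4.58% and 3.56% of all genes. The lower one, Sparc, encodes a collagen-binding matrix protein and was at 1.13 and 1.54 CPM in WT and 0.087 and 0.24 CPM in Maf-KO (log2 fold change -2.92, SE 0.88, edgeR adjusted p = 0.444). The fibroblast genes Dcn and Col3a1 had log2 fold changes of -1.22 (SE 1.05) and -0.69 (SE 0.91), with groups that overlapped. Stromal and endothelial markers summed to 68.6 and 66.6 CPM in WT and 46.2 and 81.5 CPM in Maf-KO. Most of each sum came from Pecam1 alone, at 60.6 and 44.9 CPM in WT and 42.2 and 63.5 CPM in Maf-KO. The part of such cells in the matrix genes was not tested.

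Adam8 encodes a membrane metalloprotease of leukocytes. Its level was 152 and 127 CPM in WT and 21.2 and 39 CPM in Maf-KO, with no overlap, and it fell by 2.21 in log2 units (SE 0.32, edgeR adjusted p = 0.0342). Of 14 protease and inhibitor genes tested, a list chosen with earlier results known, Adam8 was the only call by edgeR (0.151% of all genes). At an unadjusted p under 0.05, 3 further genes were lower and 1 higher, against 4.58% and 3.56% of all genes. Mmp9, the gene of gelatinase B, had 164 and 156 CPM in WT and 40.4 and 39.9 CPM in Maf-KO (log2 fold change -1.99, SE 0.70, edgeR adjusted p = 0.496). In the edgeR fit to the gut libraries alone Mmp9 was called (SE 0.14, adjusted p = 0.0216) and Adam8 was not (adjusted p = 0.141). Myeloid marker sums overlapped between the genotypes, with 118 and 254 CPM in WT and 320 and 109 CPM in Maf-KO.

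Other lower genes encode membrane-associated and further proteins, and belong to no list. Arl5a encodes a small GTPase of the trans-Golgi. It was at 635 and 909 CPM in WT and 216 and 242 CPM in Maf-KO, and fell by 1.75 in log2 units (SE 0.22, edgeR adjusted p = 0.0154). Snx2, the gene of a sorting nexin of the retromer, had 194 and 206 CPM in WT and 85.6 and 91.3 CPM in Maf-KO (log2 fold change -1.18, SE 0.12, edgeR adjusted p = 0.0064). Laptm4b, the gene of a lysosomal membrane protein, had 12.6 and 13.4 CPM in WT and 3.48 and 4.79 CPM in Maf-KO (log2 fold change -1.64, SE 0.23, edgeR adjusted p = 0.0305). Replicates of these genes lay closer to each other than to the other genotype. Gpr155, which encodes a lysosomal membrane protein, had 40.5 and 47.2 CPM in WT and 19.5 and 21.4 CPM in Maf-KO. Frmd5, which encodes a FERM domain protein, had 12.2 and 14 CPM in WT and 2.44 and 3.51 CPM in Maf-KO. Both were called with an edgeR adjusted p of 0.0494, near the limit, and held in 5 and 7 of 18 alternatives.

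Neb encodes nebulin, a giant protein of the muscle sarcomere, and was at 240 and 189 CPM in WT and 43 and 55 CPM in Maf-KO (log2 fold change -2.13, SE 0.26, edgeR adjusted p = 0.0154). Its transcript is very long, and on the FPKM scale it stood at only 10.3 and 7.74 FPKM in WT. Mynn, a zinc finger gene, had 212 and 223 CPM in WT and 129 and 114 CPM in Maf-KO, the smallest change of the 20 (log2 fold change -0.84, SE 0.11, edgeR adjusted p = 0.0215). Lrif1, the gene of a nuclear receptor interacting factor, had 39 and 35.2 CPM in WT and 18.3 and 16.5 CPM in Maf-KO (log2 fold change -1.09, SE 0.16, edgeR adjusted p = 0.0359). Hmga2-ps1, the only called gene that is not protein-coding, is a pseudogene of Hmga2 and its reads could belong to a copy. Its counts were 157 and 100 in WT against 6 and 5 in Maf-KO.

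Several called genes were neighbours. Rnase4 and Ang overlap, Neb and Arl5a lie 59151 bases apart on chromosome 2, and Laptm4b and Matn2 lie 22386 bases apart on chromosome 15. Within 100000 bases of the called genes, 36 further genes were tested. At an unadjusted p under 0.05, 5 were lower and 0 higher, against 4.58% and 3.56% of all genes. The median log2 fold change of the 36 was -0.08 (all genes: median -0.0035). The lower ones included Cacnb4, 3446 bases from Arl5a, with a log2 fold change of -1.76 (SE 0.56), and Actrt3, 2217 bases from Mynn, with -2.19 (SE 0.53). The others were Wdr76, 669 bases from Frmd5, with -0.80 (SE 0.31), and Sdccag8 and Cep170 near the pseudogene Hmga2-ps1. Sdccag8, which overlaps it, had -0.42 (SE 0.13), and Cep170, 20645 bases away, had -0.74 (SE 0.20). Rif1, 9871 bases from Neb, had a log2 fold change of -0.04 (SE 0.14), so the change around Neb did not take in every gene.

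Both calls in the higher direction, Nkg7 and Cd7, are in the Th1 and cytotoxic list, chosen with earlier results of these data known. Nkg7 encodes a protein of cytotoxic granules and was at 341 and 262 CPM in WT and 649 and 736 CPM in Maf-KO. It rose by 1.20 in log2 units (SE 0.14, edgeR adjusted p = 0.0154), and on the FPKM scale from ranks 139 and 174 to ranks 49 and 42. Cd7, the gene of an immunoglobulin superfamily protein of T and NK cells, had 68.9 and 81.2 CPM in WT and 257 and 174 CPM in Maf-KO (log2 fold change 1.52, SE 0.19, edgeR adjusted p = 0.0154). Both calls were held in 14 of 18 alternatives, and with WT gut replicate 3 left out edgeR called 0 genes higher. In the fit to the gut libraries alone neither was called (adjusted p 0.175 for Nkg7 and 0.156 for Cd7, edgeR), and the 3 higher genes called there were Trim12a, Trim30d and Dtx1.

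All 26 genes of the Th1 and cytotoxic list, chosen with earlier results of these data known, were tested, and the members differed in direction. Besides the 2 calls by edgeR, 5 more were higher and 5 lower at an unadjusted p under 0.05, 46.2% of the list against 8.14% of all genes. The median was 0.39 and 17 of 26 were positive, against 49.3% of all genes. Members with positive values included ligands and effector genes. Fasl, the gene of Fas ligand, had 124 and 96.7 CPM in WT and 209 and 194 CPM in Maf-KO (log2 fold change 0.87, SE 0.16, edgeR adjusted p = 0.0962), and was called higher by DESeq2 and by limma-voom with and without the block. Gzmb, the gene of granzyme B, had 2156 and 1403 CPM in WT and 3137 and 3488 CPM in Maf-KO (log2 fold change 0.90, SE 0.44, edgeR adjusted p = 0.642). Tbx21, which encodes the Th1 factor T-bet, had 60 and 60.6 CPM in WT and 78.9 and 90.5 CPM in Maf-KO (log2 fold change 0.49, SE 0.17, edgeR adjusted p = 0.49). Genes of the receptors for Th1-promoting cytokines lay on the other side. Il12rb2, a subunit of the interleukin 12 receptor, had 22.1 and 13.7 CPM in WT and 4.27 and 4.71 CPM in Maf-KO (log2 fold change -1.99, SE 0.38, edgeR adjusted p = 0.126), and was called lower by DESeq2 and by limma-voom without the block. Il18r1, a subunit of the interleukin 18 receptor, had 87.2 and 68.3 CPM in WT and 39.9 and 48.4 CPM in Maf-KO. Ifng was at 44.4 and 59.5 CPM in WT and 66.2 and 78.5 CPM in Maf-KO, without a call (log2 fold change 0.48, SE 0.39). Markers of CD8, NK and innate lymphoid cells summed to 507 and 708 CPM in WT and 331 and 364 CPM in Maf-KO, most of it from Il7r, which T cells also express. Without Il7r the sums were 142 and 123 CPM in WT and 132 and 138 CPM in Maf-KO, which overlap. Cd8a was higher in both Maf-KO libraries, at 7.29 and 6.04 CPM in WT and 11.1 and 7.51 CPM in Maf-KO, without a call (log2 fold change 0.48). The part of such cells in the values of this list was not tested.

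**Figure D3:**
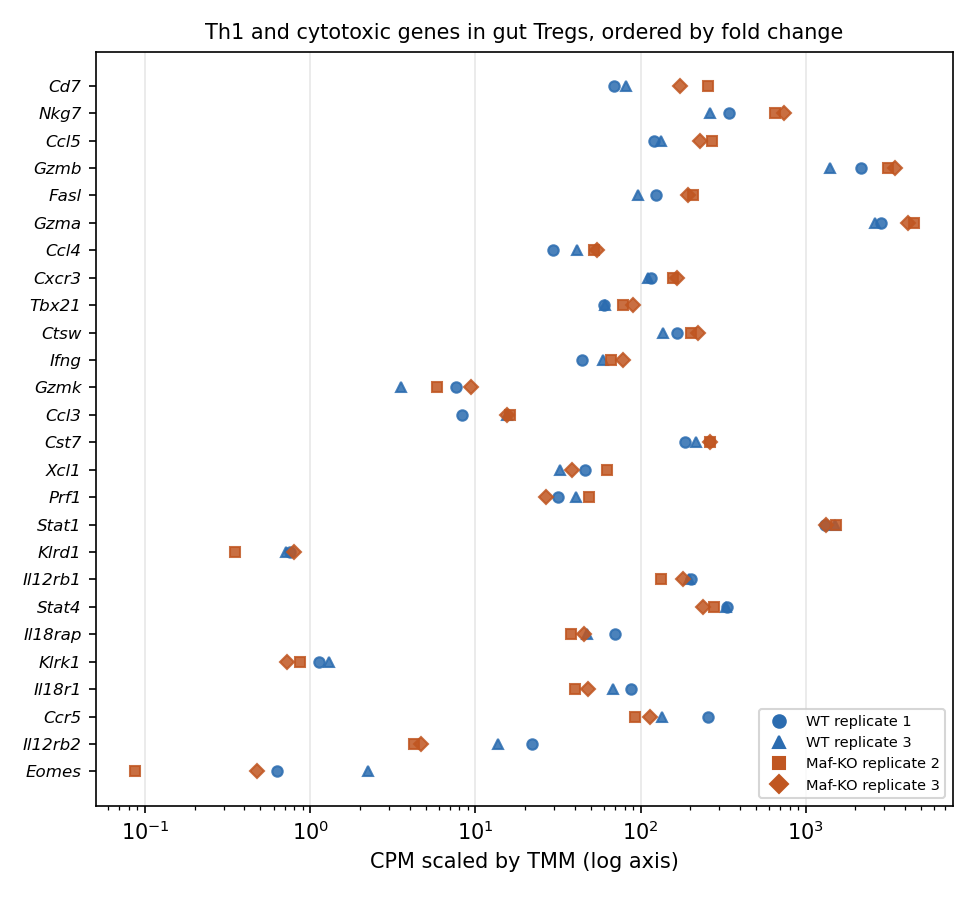
Levels of the 26 Th1 and cytotoxic genes in the 4 gut libraries, as CPM scaled by TMM on a log axis (blue, WT; orange, Maf-KO), ordered by log2 fold change. Cd7 and Nkg7 at the top are the called genes, and Il12rb2 and Il18r1 near the bottom are lower in both Maf-KO libraries.

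Genes of the Th17 programme did not move as a block. Il17a overlapped between genotypes, with 8.05 and 3.2 CPM in WT and 4.7 and 10.9 CPM in Maf-KO. Rora, the gene of a nuclear receptor, had 616 and 487 CPM in WT and 697 and 755 CPM in Maf-KO. Of 16 genes tested, Ccl20 was called lower by edgeR (0.136% of all genes) and none higher. At an unadjusted p under 0.05, 3 were lower and 2 higher, against 4.58% and 3.56% of all genes. The median was -0.16, and this list too was chosen with earlier results of these data known.

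The lists of this paragraph were chosen with earlier results of these data known. Treg identity genes included no call by edgeR among 16 tested (0.151% of all genes). At an unadjusted p under 0.05, 3 were higher and 0 lower, against 3.56% and 4.58% of all genes. DESeq2 called 1, Lrrc32. Lrrc32 encodes GARP, which holds latent TGF-beta at the Treg surface. It had 121 and 158 CPM in WT and 324 and 488 CPM in Maf-KO, without overlap, as was so for 36.2% of all genes (log2 fold change 1.54, SE 0.34, edgeR adjusted p = 0.187). Itgb8, whose product forms part of an integrin that activates latent TGF-beta, was at 56.9 and 58.4 CPM in WT and 28.6 and 28.8 CPM in Maf-KO (log2 fold change -1.004, SE 0.32, edgeR adjusted p = 0.445). Neither was called by edgeR, and TGF-beta genes as a list had a median of 0.09 over 18 members. Ikzf2, which encodes Helios, had 394 and 306 CPM in WT and 271 and 228 CPM in Maf-KO (log2 fold change -0.49, SE 0.23). Gata3 was at 1067 and 1408 CPM in WT and 917 and 870 CPM in Maf-KO (log2 fold change -0.47, SE 0.19, edgeR adjusted p = 0.575). Of 13 GATA3, Helios and tissue Treg genes none was called by edgeR and Areg by DESeq2, with 1 higher and 3 lower at an unadjusted p under 0.05. Of 18 regulators of effector Tregs none was called by edgeR or DESeq2, and Satb1, Rora and Runx3 were higher at an unadjusted p under 0.05. Of 16 genes of suppressive molecules, Il10 was the only call by edgeR and DESeq2 called Areg as well, and Areg, Itgb8 and Ebi3 were lower at an unadjusted p under 0.05.

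Cytokine receptor genes around IL-10 and IL-21 were uneven. Il21r, which encodes the receptor of interleukin 21, was at 633 and 568 CPM in WT and 1097 and 1140 CPM in Maf-KO (log2 fold change 0.90, SE 0.16, edgeR adjusted p = 0.111). Il10ra, the gene of the IL-10 receptor chain that binds the cytokine, had 242 and 332 CPM in WT and 139 and 196 CPM in Maf-KO. Il21r was called by DESeq2 and Il10ra was not. Of 13 genes of this list, 1 was called by edgeR (Il10), against 0.151% of all genes. At an unadjusted p under 0.05, 2 were higher and 2 lower, against 3.56% and 4.58% of all genes.

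The relatives and partners of c-Maf included no call by edgeR among 17 tested, and Nfe2l2 was called by DESeq2. At an unadjusted p under 0.05, 2 were lower, against 4.58% of all genes. Nfe2l2, the gene of the oxidative stress factor NRF2, had 63 and 82.1 CPM in WT and 48.3 and 36.8 CPM in Maf-KO (log2 fold change -0.77, SE 0.17). Mafg, which encodes a small Maf protein, had 42.9 and 43.4 CPM in WT and 26.2 and 26.4 CPM in Maf-KO (log2 fold change -0.71, SE 0.19).

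Migration and residency genes held no edgeR or DESeq2 call among 18 tested. At an unadjusted p under 0.05, 5 were lower and 2 higher, against 4.58% and 3.56% of all genes. Ccr2, the receptor gene for CCL2, had 567 and 266 CPM in WT and 77.4 and 156 CPM in Maf-KO (log2 fold change -1.83, SE 0.48, edgeR adjusted p = 0.298). The WT replicates differed by more than the nearest libraries of the 2 genotypes. Itga1, an integrin gene of tissue-resident T cells, had 5.03 and 5.44 CPM in WT and 9.92 and 16.2 CPM in Maf-KO. Among naive T cell and lymphoid homing genes, 11 of 14 were positive with a median of 0.42, and none was called by edgeR or DESeq2. Il7r stood apart in that list, with 365.5 and 585 CPM in WT and 199 and 226 CPM in Maf-KO. Follicular genes were mostly negative, 12 of 16 with a median of -0.25 and no call by edgeR or DESeq2. Cxcr5 was at 23 and 35.3 CPM in WT and 19 and 25.3 CPM in Maf-KO.

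Signalling, metabolic and stress gene lists, chosen with earlier results of these data known, held no call by edgeR. Over all genes 0.151% were called by edgeR, and 3.56% were higher and 4.58% lower at an unadjusted p under 0.05. Of 24 PI3K, Akt and mTOR genes 3 were higher and 1 lower at an unadjusted p under 0.05, and the median was -0.01. Pik3cd, the gene of the leukocyte PI3K catalytic subunit, had 343 and 401 CPM in WT and 619 and 610 CPM in Maf-KO (log2 fold change 0.72, SE 0.14, edgeR adjusted p = 0.114) and was called by DESeq2. Cholesterol synthesis genes were positive in 21 of 22 with a median of 0.26, and no gene was called by edgeR or DESeq2. Lss, which encodes lanosterol synthase, had 24.4 and 30.1 CPM in WT and 39.5 and 42.5 CPM in Maf-KO. Immediate early and heat shock genes were negative in 19 of 22 with a median of -0.26, again with no call by edgeR or DESeq2 and 1 lower at an unadjusted p under 0.05. Spread between replicates varied among its members. Dnajb1, the gene of a heat shock cochaperone, was at 1074 and 2982 CPM in WT and 1338 and 426 CPM in Maf-KO, and Ier5, an immediate early gene, at 492 and 569 CPM in WT and 438 and 430.0 CPM in Maf-KO. Interferon response genes had 5 of 20 higher at an unadjusted p under 0.05 and none lower, 25% of the list against 8.14% of all genes. They held no edgeR call and 1 DESeq2 call, Oas3 (59.7 and 74.8 CPM in WT, 156 and 114 CPM in Maf-KO). Cell cycle genes had 0 of 22 past an unadjusted p of 0.05, no call by edgeR or DESeq2 and a median of -0.07.

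**Figure D4:**
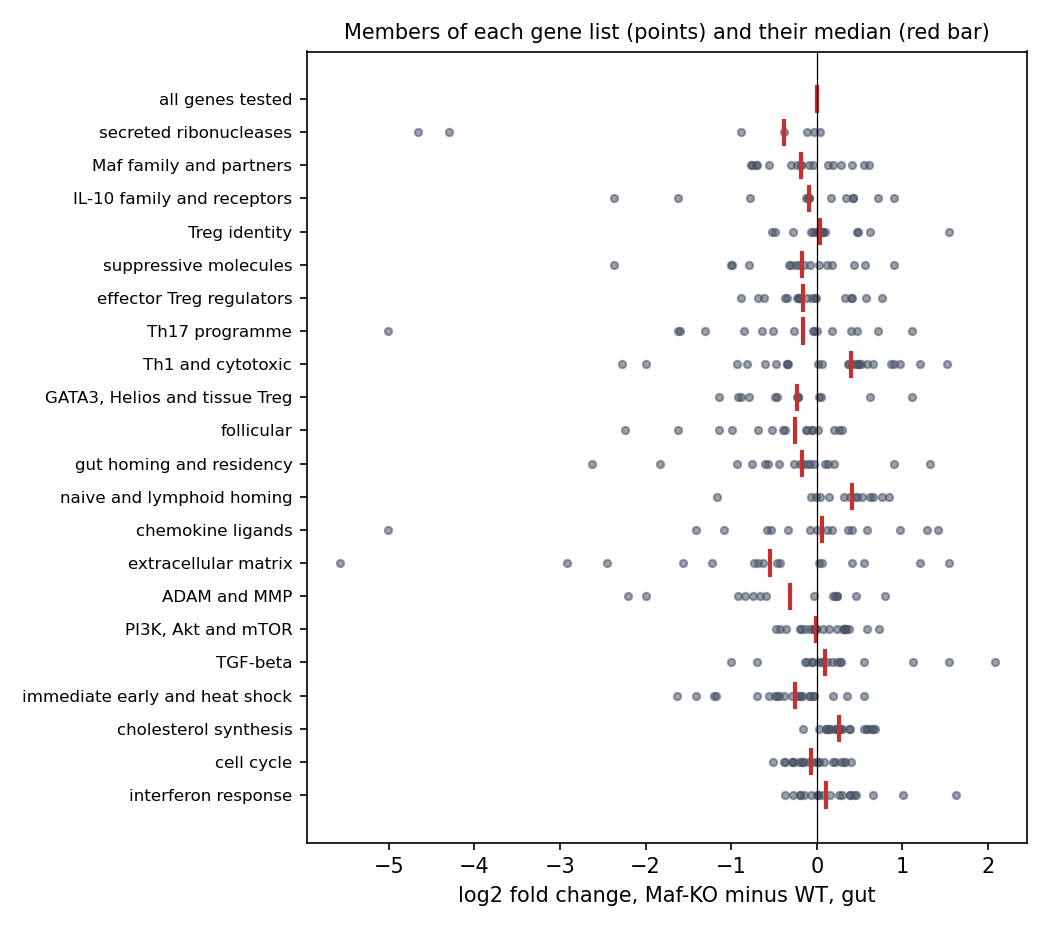
Log2 fold change of Maf-KO against WT in gut for the tested members of the 21 gene lists that are not cell markers (points) with the list's median (red bar). Medians lie between -0.55 and 0.42, and the points far to the left are Col16a1, Ccl20, Ang and Rnase4.

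Genes just short of the threshold followed the 20. Between an adjusted p of 0.05 and 0.2 there were 20 genes higher and 43 lower, 5 of them immunoglobulin segments. Dtx1, which encodes a regulator of Notch signalling, had 165 and 158 CPM in WT and 481 and 427 CPM in Maf-KO (log2 fold change 1.49, SE 0.25, edgeR adjusted p = 0.0771). Tle1, the gene of a Groucho family corepressor, had 1.89 and 1.66 CPM in WT and 14.6 and 11 CPM in Maf-KO (log2 fold change 2.85, SE 0.47, edgeR adjusted p = 0.0682). Fgr, which encodes a Src family kinase of myeloid and other leukocytes, had 8.55 and 8.4 CPM in WT and 21.3 and 32.7 CPM in Maf-KO. In each of these the Maf-KO libraries were at least 2-fold above the WT libraries. Sema3d, the gene of a secreted semaphorin, had 0.126 and 1.07 CPM in WT and 6.62 and 15.2 CPM in Maf-KO. Further higher genes by lowest p were Fasl, Ssbp2, Il21r, Atp6v0d2 and Pik3cd, with log2 fold changes from 0.63 to 1.36. On the lower side the next included Glcci1, Nckap5, Zfp120, Il12rb2, Rap2a, Pnlip, Acer2, Kctd12 and Cel. Pnlip and Cel, digestive enzyme genes of the exocrine pancreas, were at 0 counts in both Maf-KO libraries, at least 136-fold and 83.9-fold lower by counting error alone against a floor of 3 counts over the group. These bounds rest mainly on WT gut replicate 1, and from WT gut replicate 3 alone they are 60.6-fold and 21.8-fold. Kctd12 had 59.2 and 74.8 CPM in WT and 20.4 and 15.5 CPM in Maf-KO.

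The same contrast in spleen was set beside that of gut. Each gut library shares its title number with a spleen library, and same-numbered libraries varied together (correlations 0.287 to 0.477). The spleen contrast is therefore not an independent check of the gut contrast. All 20 called genes had the same sign in spleen, but the share of all genes with the same sign in both tissues was not computed. Of the 20, 2 were called in spleen (Maf and Rnase4, against 0.0151% of all genes). An unadjusted spleen p under 0.05 was found for 13 (2.85% of all genes). Of the 18 with over 3 counts in each spleen group, 18 changed by more in gut. Ccl20 and Col16a1 were not ranked, with 19 and 50 counts over the WT spleen libraries and 0 and 1 over the Maf-KO spleen libraries. The test of the difference between the tissues called 0 genes (0%) in edgeR, where 422 (3.19%) had an unadjusted p under 0.05, and 8 genes in DESeq2. Of the 20, 16 had an unadjusted p of the difference under 0.05, but they were chosen by their change in gut, which favours a larger value there. Il10 was -2.37 in gut and -1.44 (SE 0.30) in spleen, Rnase4 -4.29 and -2.24 (SE 0.20), and Arl5a -1.75 and -0.59 (SE 0.17). Neb was near the same in both, at -2.13 and -1.87 (SE 0.23). Nkg7 and Cd7 were 1.20 and 1.52 in gut and 0.30 (SE 0.12) and 0.28 (SE 0.16) in spleen, and DESeq2 called the difference for both, for Rnase4 and for Mynn among the 20.

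**Figure D5:**
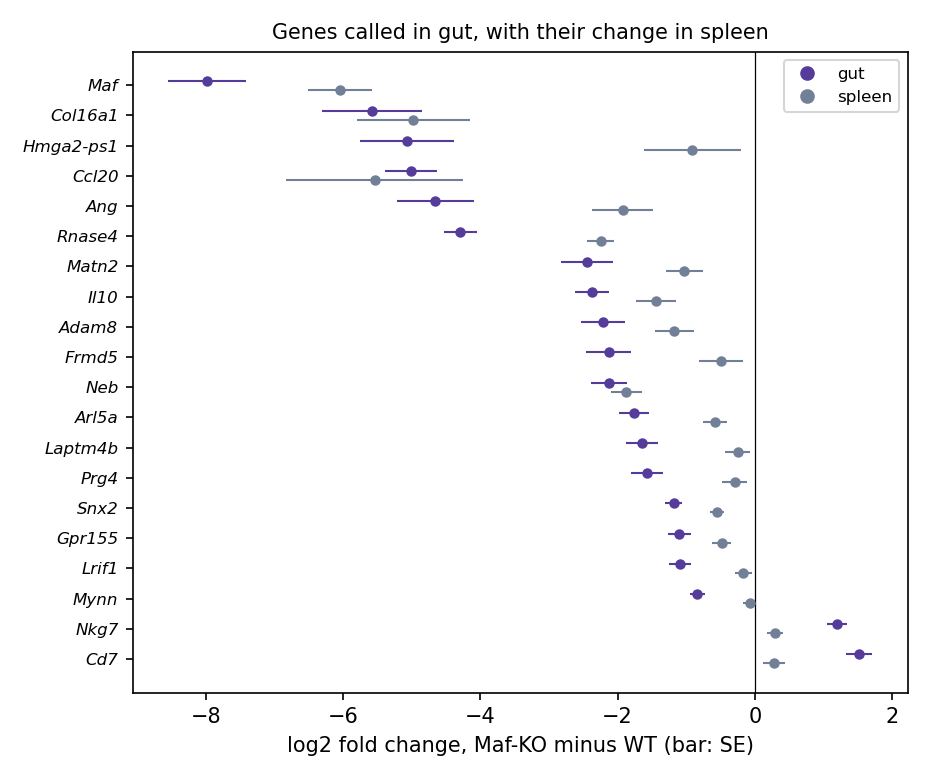
Log2 fold change of Maf-KO against WT with its SE for the 20 genes called in gut, in gut (purple) and in spleen (grey). The 2 values have the same sign for every gene, and the spleen value is the smaller for the 18 with over 3 counts in each spleen group, while the spleen values of Ccl20 and Col16a1 rest on 0 and 1 counts in Maf-KO and cannot be ranked.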

How the data were processed

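RNA was measured by sequencing in sorted Tregs. Raw read counts per Entrez gene (27179 genes) were deposited by the authors, not normalized. GRCm38, mm10, Subread, featureCounts and limma are named in the submitters' processing notes; versions and strand setting have no statement in the sources used here. Values on a log2 scale, as deposited, are log2 FPKM of 12252 genes, computed by the authors; they were raised back to FPKM for levels per length.

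Counts were fitted in R 4.3.3 with edgeR 4.0.16: filterByExpr (minimum count 10, minimum total 15), TMM, a quasi-likelihood fit of the 4 group means over all 10 libraries (6 residual degrees of freedom), two-sided tests, Benjamini-Hochberg adjustment over 13214 genes, called at an adjusted p under 0.05. This main fit took the 10 libraries as independent, although same-numbered gut and spleen libraries varied together. Its p-values do not allow for that pairing. The SE is the log2 fold change divided by the square root of F. CPM are TMM-scaled. The 852 entries with an Entrez number and no symbol held 0.173 to 0.203% of counts and stayed in the library totals. Folds against a group at 0 are bounds against 3 counts over the group. Such bounds cover counting error only. Bounds from a single WT library, the marker sum without Il7r and the limit of 3 spleen counts were added after seeing the data.

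Alternatives used DESeq2 1.42.0, limma 3.58.1 (voom, and trend on the log2 values), DESeq2 size factors, no filter, the gut libraries alone and each library left out. Same-numbered gut and spleen libraries deviated together from their group means (correlations 0.287, 0.413, 0.476 and 0.477 over 10083 genes), so the title numbers were taken to pair them, from the data and not from a label. Replicates differed beyond counting (chi-square per degree of freedom 32.2 in WT and 32.6 in Maf-KO gut).

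Members and the 30 gene lists (9 of cell markers) were chosen with earlier results of these data known. Named were all called genes, the 10 lowest p per direction among genes that missed the threshold, with a mean of at least 5 CPM and no overlap, each list's called members and up to 4 more by p, and Foxp3, Il10, Gata3, Ikzf2, Tbx21, Il17a, Ifng, Cxcr5 and Ccr6. Some genes that the rule names are not reported here. Genes named outside this rule (neighbours, Trim12a, Trim30d, Rnh1, and those of the closing section) were chosen after their values were seen. Positions and promoters are from RefSeq tables (GRCm38.p6); 12862 of the tested genes had a position. The fit was tested on simulated counts.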

Additional observations from a re-analysis of the deposited data

How the results depend on the processing

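Maf was called in every alternative, with log2 fold changes of -8.75 to -7.44. Against 20 called genes (2 higher, 18 lower), the count was 74 (22 and 52) without a filter on low counts, 107 (33 and 74) with DESeq2, 33 (5 and 28) with limma-voom, 42 (5 and 37) with limma-voom and the replicate block, and 12 (3 and 9) with the gut libraries alone. Leaving out each library gave 4 to 22 genes, 0 to 7 higher and 3 to 19 lower, with an arm of 1 gut library assumed to vary like the other groups; without WT spleen replicate 2 there were 7 higher. With DESeq2 size factors, limma-trend on log2 FPKM, or immunoglobulin and pancreatic genes left out (added after seeing the data), the count was 18, 15 and 21. The difference between tissues called 8 genes with DESeq2 and 0 with every other fit, the block as a fixed term included. The cause of these shifts was not tested beyond the smaller number of libraries or genes in a fit. Rnase4, Maf and Ccl20 kept their calls in all 18 alternatives, Il10 in 16, and Matn2 and Gpr155 in 5. Directions reversed, with 1 gut library left out, for genes that were not called: the log2 fold change ranged from -1.17 to 0.0158 for Jun, -0.25 to 1.29 for Il17a (also -0.04), -0.0856 to 0.31 for Foxp3 (also -0.05) and -0.0757 to 0.14 for Rnaset2b. With 2 libraries per genotype and a floor of 0.24 to 0.377 CPM, changes of low genes such as Col16a1, Ang and Hmga2-ps1 in Maf-KO rest on 1 to 6 counts per library.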

Other observations

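Arnt2, which encodes a partner of PAS domain transcription factors and was picked after its values were seen, had 85 and 52 counts in WT gut and 0 counts in both Maf-KO gut libraries, at least 66.8-fold lower against a floor of 3 counts over the group, by counting error alone. Its edgeR adjusted p was 0.0771, and DESeq2 called it. In spleen it had 43, 62 and 130 counts in the WT libraries and 0 counts in all 3 Maf-KO libraries.

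Other genes picked after their values were seen follow. Wdfy1, on chromosome 1 from 79702262 to 79776143, was at 52.9 and 33.4 CPM in WT gut and 8.79 and 8.79 CPM in Maf-KO gut. In spleen it was at 6.28 and 8.77 CPM in the Maf-KO replicates 2 and 3, which share title numbers with the Maf-KO gut libraries, and at 29.3 CPM in Maf-KO replicate 1, within the 24.3 to 32.5 CPM of WT spleen. Trim12a in gut had a ratio of 267 (exact 95% counting interval 47.7 to 10578) of Maf-KO over WT, and an edgeR adjusted p of 0.501. Gbp2b, a guanylate-binding protein gene, was at 34.4 and 35.7 CPM in WT gut and 12.6 and 3.03 CPM in Maf-KO gut, and in spleen at 10.2 to 11.4 CPM in WT and 0.585 to 1.87 CPM in Maf-KO, a division by genotype in both tissues.

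Immunoglobulin segments took 3.29 and 1.54% of the counts in WT gut and 2.42 and 0.821% in Maf-KO gut. Of 186 segments tested, 121 had a negative log2 fold change, and the median of all segments was -0.59. At an unadjusted p under 0.05, 22 were lower and 12 higher, against 4.58% and 3.56% of all genes. The larger difference in share lay between replicates of a genotype.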
